A study of Mus musculus with 2 samples.

Results

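Glycolysis, the pathway that turns glucose into pyruvate and lactate, and the transcriptional response to low oxygen were followed through 33 genes in fetal mouse lung. They comprise 16 glycolytic enzymes, 15 genes known to respond to hypoxia and the 2 alpha subunits of the hypoxia-inducible factors, Hif1a and Epas1. A probe was assigned to a member when the array's gene name or the current symbol of its transcript accession matched, which gave 58 of 41167 mouse probes and 33 of 27592 genes. All 33 genes were well above background in both colours through at least 1 probe, and 54 of the 58 probes were kept as detected in at least 1 colour. The probes not kept were 2 of Hk1, 1 of P4ha2 and 1 of Slc2a3.

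The samples were lung lobes of 2 male littermate embryos at E16.5 on an Sv129/CD-1 hybrid background, 1 homozygous for the Foxj1lacZ allele (Foxj1 -/-) and 1 heterozygous for it (Foxj1 +/-). Foxj1 is a forkhead transcription factor known for switching on the genes of motile cilia, and both embryos carry the lacZ allele, with no wild-type sample. For each embryo 100 ng of total RNA was amplified in 1 round, and the homozygous RNA (Cy5, red) and heterozygous RNA (Cy3, green) were hybridised together on 1 Agilent array without a dye swap. Genotype, embryo and dye therefore cannot be told apart, no test of any difference is possible with 1 lung per genotype, and "higher" and "lower" below describe the homozygous against the heterozygous channel of this array.

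In glycolysis the early steps phosphorylate and split glucose at the cost of ATP, and the late steps, after triose phosphate, yield ATP and pyruvate. Under low oxygen the prolyl hydroxylases that mark the alpha subunits for destruction lose activity, and the stabilised subunits pair with Arnt and bind hypoxia response elements near genes of glucose uptake, glycolysis, angiogenesis, matrix modification and mitophagy. Fetal tissues live at lower oxygen than adult ones, and hypoxia-inducible factors and Vegfa are known to take part in lung vascular and airway development.

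Foxj1 stood at log2 levels of 7.61 in the homozygous and 9.53 in the heterozygous channel, a log2 ratio of -1.92; whether its probe lies in the part that the allele removes was not settled. The labels call the samples lung lobes in one place and lung epithelium in another. The 6 lung epithelial markers were all detected, with a summed log2 level of 17.68 in the homozygous and 17.44 in the heterozygous channel. That sum is carried by the bright Sftpc (0.33); 3 of the 6 stood below 0, and Scgb1a1 (-2.47) and Sftpb (-1.72) were at least 2-fold lower. Also detected were endothelial markers (14.22 against 14.51), mesenchymal markers (12.78 against 12.49), leukocyte markers (13.38 against 13.01) and smooth muscle markers (14.27 against 13.93). Above 0 stood 1 of 4 endothelial, 2 of 4 mesenchymal, 3 of 4 leukocyte and 3 of 3 smooth muscle markers. Striated and cardiac muscle markers summed to 13.75 in the homozygous and 15.27 in the heterozygous channel, with 4 of 5 at least 2-fold lower. Erythroid markers summed to 13.53 and 15.01, with 1 of 5 at least 2-fold lower and a median log2 ratio of -0.87. Neuroendocrine markers summed to 10.49 and 11.90, with 2 of 4 at least 2-fold lower and a median of -0.82. The 4 multiciliated cell markers, all at least 2-fold lower, summed to 10.63 and 12.32. They include Foxj1, the altered gene itself, so their sum is not independent of the genotype. All these sums are weighted towards the brightest markers. Muscle and red cells both use glycolysis heavily, and the part of these shifts in the ratios below was not tested. In RNA of whole lobes, fewer cells of a type and less RNA per cell cannot be told apart.

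Levels are background-corrected, loess-normalised log2 intensities, and each gene's ratio is the log2 difference, homozygous minus heterozygous, as the median over its kept probes. Values after ± are errors of the log ratio from the scanner's own error model, 0.20 to 0.28 for the members, which cover noise of spots and channels but not differences between embryos. They belong to the scanner software's own log ratio and are set here beside the loess ratios, so for some genes the 2 ratios fall on different sides of the error. Levels of different genes depend on their probes and are not set against each other. None of the 33 members, a count of 0, reached a 2-fold difference, where 2.46% of the 21171 detected genes did. At 1.5-fold the enzyme Gapdh was higher and the stress gene Ndrg1 was lower, that is 1 member in each direction, where 2.10% of detected genes were that much higher and 5.87% that much lower. The members' median log2 ratio was 0.09, against -0.0027 for all detected genes, and 24 of 33 members (72.7%) stood above 0, against 49.6% of detected genes. For 21 of the 33 the ratio was smaller than the scanner's error. The share of all detected genes within their error is not given here, so this count cannot be read as particular to the members. The plot of levels by genotype shows the closeness of the paired values for most members.

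**Figure D1:**
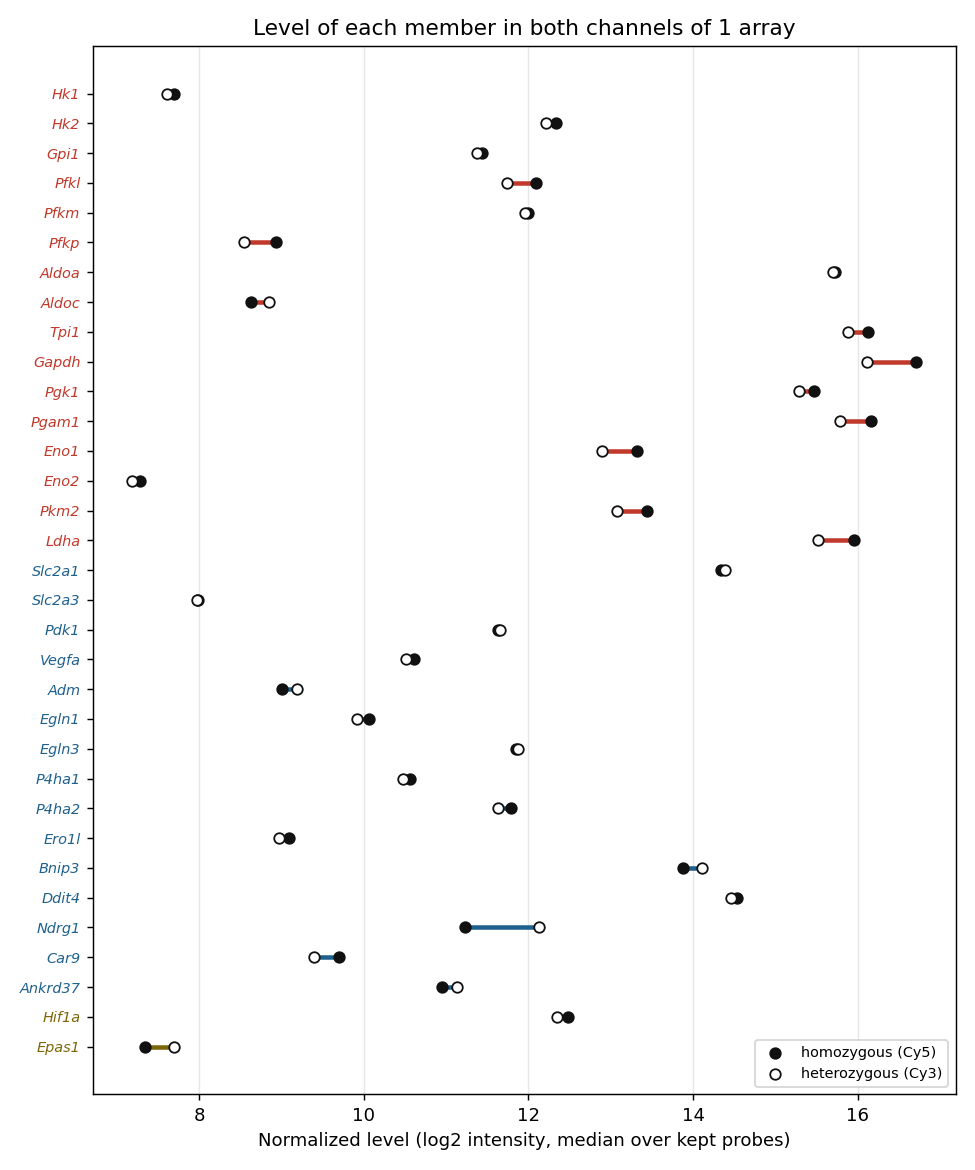
Background-corrected, normalised log2 intensity of each of the 33 genes in the homozygous and the heterozygous channel (1 lung each), ordered by role. The channels lie close for most genes, and the widest gap is that of Ndrg1, at 11.22 in the homozygous and 12.13 in the heterozygous channel.

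The core of the hypoxia response element was searched as the words ACGTG and GCGTG on both strands of the promoter windows (250 bases before to 50 after the start, RefSeq, GRCm38.p6), since it is the sequence that ties the enzymes to the hypoxia genes. A palindromic CACGTG counts once on each strand, and ACGTG overlaps the E-box CACGTG; in CACGCGTG the matches of the 2 strands overlap. The window with the most matches among the members belongs to Ldha, an enzyme of the last step, and those of 2 hypoxia genes, Bnip3 and Ankrd37, are set beside it, with the matches in capitals.
Ldha, chr7:46845554-46845853, plus strand: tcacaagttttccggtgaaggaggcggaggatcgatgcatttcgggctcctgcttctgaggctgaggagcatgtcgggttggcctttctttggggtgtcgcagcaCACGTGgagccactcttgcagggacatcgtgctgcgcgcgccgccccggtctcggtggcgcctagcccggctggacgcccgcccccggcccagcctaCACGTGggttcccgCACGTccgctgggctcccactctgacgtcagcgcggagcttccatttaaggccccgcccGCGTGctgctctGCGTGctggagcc
Bnip3, chr7:138909457-138909756, minus strand: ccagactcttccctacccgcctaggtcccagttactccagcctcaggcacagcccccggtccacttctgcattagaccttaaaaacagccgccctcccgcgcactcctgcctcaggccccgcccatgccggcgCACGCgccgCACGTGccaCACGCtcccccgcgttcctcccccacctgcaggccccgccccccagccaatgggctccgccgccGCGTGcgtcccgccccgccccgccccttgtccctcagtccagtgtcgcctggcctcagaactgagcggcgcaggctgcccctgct
Ankrd37, chr8:45999801-46000100, minus strand: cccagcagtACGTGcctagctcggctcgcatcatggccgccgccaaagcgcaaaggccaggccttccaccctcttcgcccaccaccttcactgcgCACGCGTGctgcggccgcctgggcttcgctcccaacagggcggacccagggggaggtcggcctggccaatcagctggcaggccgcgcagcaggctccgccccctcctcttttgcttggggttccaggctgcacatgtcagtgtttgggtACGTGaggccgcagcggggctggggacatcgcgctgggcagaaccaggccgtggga
This Ldha window holds 7 matches, 4 of them from 2 CACGTG palindromes, the Bnip3 window holds 5 and the Ankrd37 window 4. Of the 30 members found in the promoter table, 27 had a match in at least 1 window, among them 13 of 16 enzymes and 13 of 13 hypoxia genes, against 46.7% of 27025 genes. Member windows are rich in CG, with a median of 20 CG pairs against 7 in all windows, and counted by window, 34 of 43 member windows (79.1%) hold a match, against 73.6% of all windows with at least 20 CG pairs. The 27 members with a match had a median log2 ratio of 0.13, ranging from -0.23 in Bnip3 to 0.60 in Gapdh, and the 3 without one (Eno2, Gpi1 and Tpi1) ranged from 0.06 to 0.25 with a median of 0.10. The ratios of the members with a match thus spanned those of the members without. These are descriptions of letters in a window and say nothing of binding. The windows of Ndrg1, Epas1 and Slc2a3 were not used.

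The 9 enzymes of the upper pathway, through triose phosphate, had a median log2 ratio of 0.09, with 8 of 9 above 0, and Pfkl, Pfkp and Tpi1 were higher by more than the scanner's error. In the scanner software's own log ratio Pfkl and Pfkp still passed it, and Tpi1 (0.02) did not. Hexokinases, which trap glucose in the cell, stood close in both channels: Hk1 had log2 levels of 7.70 in the homozygous and 7.61 in the heterozygous lung (0.09 ± 0.24), and Hk2 had 12.34 and 12.21 (0.13 ± 0.20). Gpi1, which turns glucose 6-phosphate into fructose 6-phosphate, read 11.43 in the homozygous and 11.37 in the heterozygous lung (0.06 ± 0.22). These levels are midpoints between 2 probes of mean log2 intensity 15.32 and 7.48, with ratios of 0.04 and 0.08. As gene medians, the differences of Hk1, Hk2 and Gpi1 all lie within the scanner's error, but the brightest probe of Hk1 alone gave -0.44 ± 0.21.

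Phosphofructokinase, the committed step of glycolysis, is built from the liver (Pfkl), muscle (Pfkm) and platelet (Pfkp) type subunits, and these did not read alike. Pfkl stood at 12.10 in the homozygous against 11.74 in the heterozygous lung, 1.28-fold higher (0.36 ± 0.21). Pfkp stood at 8.93 in the homozygous and 8.54 in the heterozygous lung, 1.31-fold higher (0.39 ± 0.27). Pfkm stood at 12.00 and 11.96 in the homozygous and heterozygous lung, a ratio of 0.04 ± 0.20. Thus the liver and platelet types were higher in the homozygous channel by more than the scanner's error, while the muscle type differed by less than it.

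Among the aldolases, which split fructose bisphosphate, Aldoa gave 15.72 in the homozygous and 15.70 in the heterozygous lung (0.02 ± 0.20). Aldoc, the form known from brain, gave 8.63 in the homozygous and 8.85 in the heterozygous lung (-0.22 ± 0.26), the only enzyme below 0. These are midpoints between a brighter probe at -0.41 ± 0.21 and a dim one at -0.03 ± 0.32. Triose phosphate isomerase, Tpi1, read 16.12 in the homozygous and 15.88 in the heterozygous lung (0.25 ± 0.20). The sign of Aldoa turned in 4 of 8 alternative settings, with a ratio of -0.19 in the scanner software's own normalisation, and Tpi1 then stood at 0.02.

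The 7 enzymes of the lower pathway, from glyceraldehyde 3-phosphate to lactate, all stood above 0, with a median of 0.38 and a range of 0.10 to 0.60. From the scanner's own log ratio, as from the series matrix, that median came to 0.24. Gapdh, which oxidises glyceraldehyde 3-phosphate, read 16.71 in the homozygous and 16.11 in the heterozygous lung, 1.51-fold higher (0.60 ± 0.21). Its probe lies on chr6:125128116-125128174, minus strand, of the mm8 build, and in the scanner software's normalisation its ratio was 0.24. Pgk1, the first enzyme of the pathway to yield ATP, read 15.47 in the homozygous and 15.29 in the heterozygous lung (0.18 ± 0.20). Pgam1, which moves the phosphate of phosphoglycerate, read 16.16 in the homozygous and 15.78 in the heterozygous lung (0.38 ± 0.20), and 0.17 as a ratio in the scanner software's normalisation. Of these 3 bright genes, Gapdh and Pgam1 differed by more than the scanner's error and Pgk1 did not. In the scanner software's own log ratio only Gapdh did, and Pgam1 lay within its error.

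Enolases make phosphoenolpyruvate. Eno1, the broadly expressed form, stood at 13.32 in the homozygous and 12.89 in the heterozygous lung, 1.34-fold higher (0.43 ± 0.21), with its probe on chr4:149087825-149088050 of mm8. Eno2, the form known from neurons, was dim, at 7.29 in the homozygous and 7.19 in the heterozygous lung (0.10 ± 0.26). Pkm2, the array's name for the pyruvate kinase gene now called Pkm, stood at 13.43 in the homozygous and 13.08 in the heterozygous lung, 1.28-fold higher (0.36 ± 0.22). Ldha, the lactate dehydrogenase subunit that favours making lactate, stood at 15.96 in the homozygous and 15.52 in the heterozygous lung, 1.36-fold higher (0.44 ± 0.20), and 0.20 as a ratio in the scanner software's normalisation. The homozygous channel was the higher one for each of these 4 genes, by more than the scanner's error except for Eno2. In the scanner software's own log ratio this changed for 2 genes. Ldha (0.202, error 0.205) then lay just within its error, and Eno2 (0.292, error 0.257) passed it. All 7 lower-pathway ratios stayed above 0 in 7 of the 8 alternative settings, and with median centring in place of loess Eno2 fell below it.

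**Figure D2:**
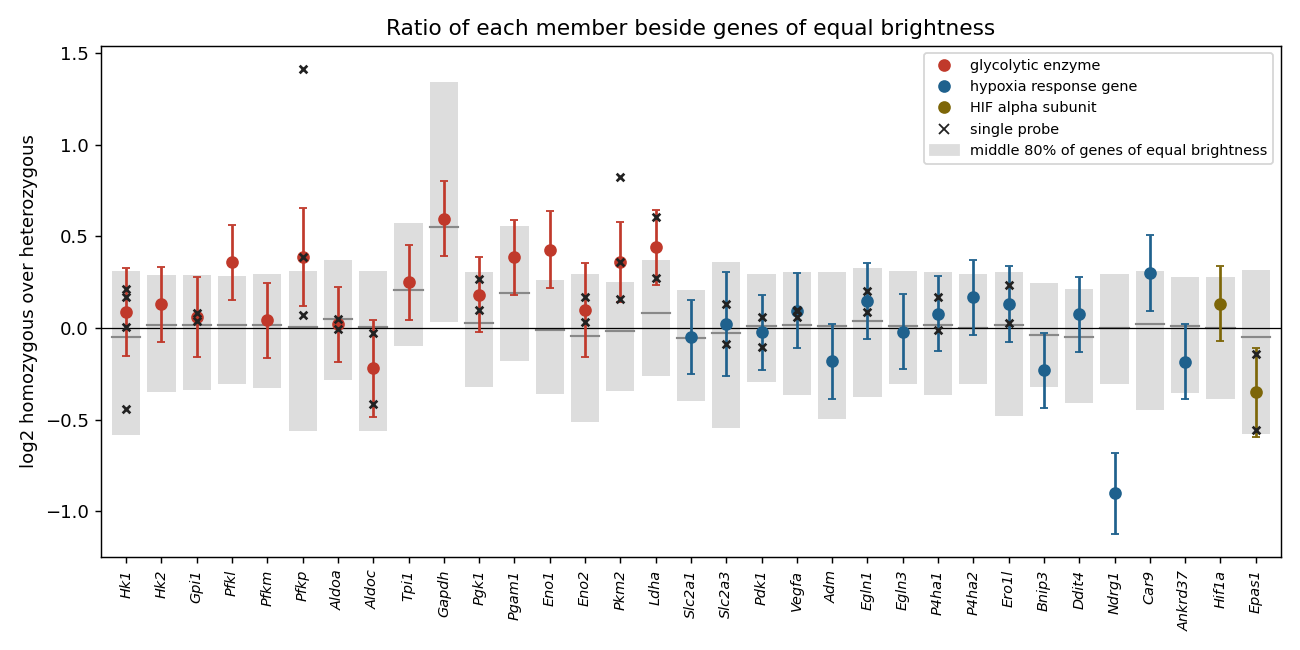
Log2 ratio of homozygous over heterozygous for each member by role, with the scanner software's error as bars, single kept probes as crosses and the middle 80% of equally bright genes as grey boxes. Lower-pathway enzymes lie between 0.10 and 0.60, while hypoxia response genes scatter around 0 with Ndrg1 at -0.90.

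Probes of 1 gene did not always give the same ratio, and 3 enzymes show it most. The stretches printed are the first 30 of the 60 bases of a probe, in lower case throughout since no part is singled out. In Pkm2, probes 88 bases apart on chromosome 9 gave 0.82 and 0.36, and a dim probe detected in the homozygous channel only gave 0.16.
Pkm2 probe at 0.82, chr9:59477106-59477165: tgtagaaagttgtcagagaattcgcagccc
Pkm2 probe at 0.36, chr9:59476958-59477017: acaccagggaaaattaatgcctctaaaaca
In Pfkp, 1 probe gave 1.41, with levels of 9.44 in the homozygous and 8.03 in the heterozygous channel, where a probe 2534 bases away gave 0.39 and the third, detected in the homozygous channel only, gave 0.07.
Pfkp probe at 1.41, chr13:6579124-6579183: cttcatggtctcagaatttccttcagagtt
Pfkp probe at 0.39, chr13:6581718-6583872: caaactgaaggggtcccagggcacagggaa
In Hk1 the brightest probe, at 12.57 in the homozygous and 13.01 in the heterozygous channel, gave -0.44, and the other 3 kept probes gave 0.01 to 0.21.
Hk1 probe at -0.44, chr10:61664525-61664584: ggaaaacatcttgtctccatcttgctagga
Hk1 probe at 0.21, chr10:61666986-61667045: gcatggccgccgtggtgcaaaagatccgag
Coordinates are those of the files (mm8), and the Pfkp probe at 0.39 covers more than its own length there, since it spans a gap in the genome. Which exons or transcript forms the probes lie in was not settled here. Taking only probes above background in both channels gave 0.59 for Pkm2 and 0.90 for Pfkp, and the scanner software's normalisation gave 0.74 for Pkm2, the value there of the dim probe detected in the homozygous channel only. The direction of Hk1 therefore depends on the probe, whereas every kept probe of Pkm2, Pfkp and Ldha stood above 0. Both Ldha probes, 533 bases apart, gave 0.61 and 0.27, and the Pgk1 probes, which share 38 bases, gave 0.27 and 0.10. Over the 16 members with several kept probes, the root mean square SD between those above background in both channels was 0.26. It was the same over all 6275 genes with several such probes, while repeated spots of a probe had a median SD of 0.041. In 5 of the 16 members the kept probes differed in sign. Gapdh, Pgam1 and Ldha have processed copies in the mouse genome, and whether their transcripts bind to these probes was not tested.

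Brightness mattered for reading the enzymes. Among the 224 other detected genes with a mean log2 intensity of 16 to 17, the median log2 ratio was 0.53 and 46.0% were at least 1.5-fold higher, whereas the 337 genes at 15 to 16 had a median of 0.04. Each member was therefore set against all other detected genes within 0.25 of its own mean log2 intensity, by their median and their middle 80%. That intensity is the median over kept probes, which for genes such as Gpi1, Aldoc and Egln1 falls between probes of unlike brightness. Gapdh, at 0.60, stood beside 139 genes with a median of 0.55 and a middle range of 0.03 to 1.34, and 47.5% of them were higher. Tpi1 had 44.7% of its equally bright genes above it, Aldoa 57.0%, Pgk1 22.2% and Pgam1 21.0%. The only member at least 1.5-fold higher was thus at the middle of genes as bright as itself.

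The enzymes Pfkl, Pfkp, Eno1, Pkm2 and Ldha, 5 of 16, lay above the middle 80% of their equally bright genes. Eno1, at 0.43, had 2.77% of 542 such genes above it, around a median of -0.01. Pkm2 had 3.65% above it, Pfkp 6.04%, Pfkl 6.09% and Ldha 6.15%, Ldha against a median of 0.08. The 5 genes were picked by their ratios, and by definition a part of all genes lies above such a band. Other enzymes of the same steps lay within it: Pfkm had 45.0% and Eno2 27.9% of equally bright genes above it. Over the 16 enzymes the median difference from equally bright genes was 0.14, with 14 of 16 above them, and it was 0.04 for the upper and 0.20 for the lower pathway. Without the 6 enzymes brighter than 15, a choice made after seeing the data, the median ratio of the other 10 was 0.11 and their median difference from equally bright genes stayed at 0.14, with 9 of 10 above them. These 10 include Gpi1, whose brighter probe lay at 15.32.

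**Figure D3:**
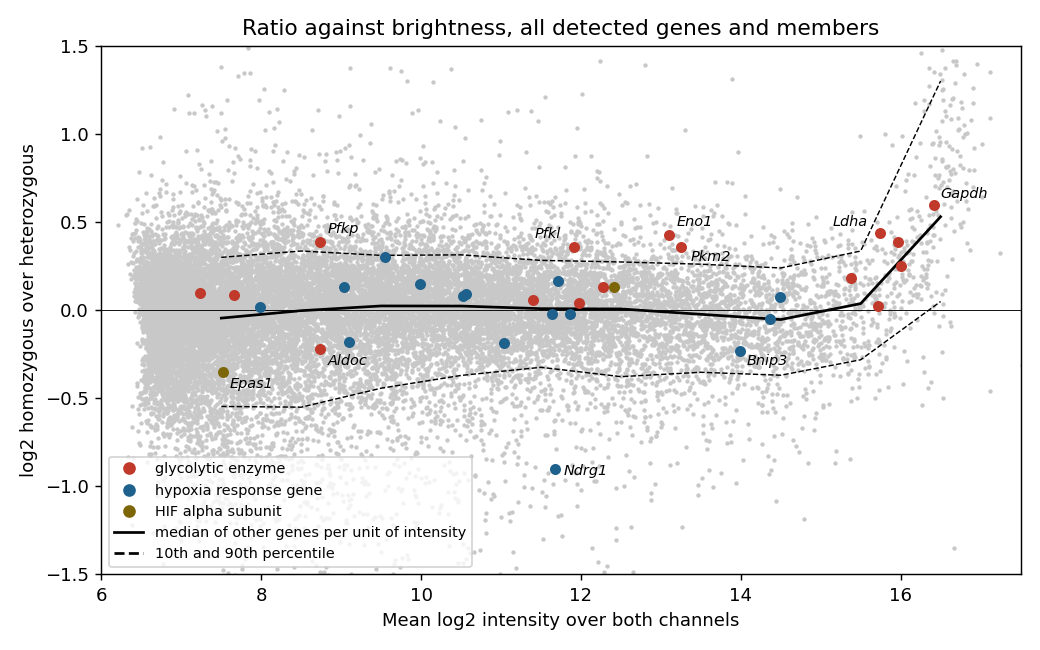
Log2 ratio of homozygous over heterozygous against mean log2 intensity, with the members marked by class and the median and middle 80% of the other detected genes by brightness; genes beyond 1.5 in either direction lie outside the plot. The whole array bends upward above an intensity of 16, where Gapdh lies, and Ndrg1 lies below the band at -0.90.

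The 15 hypoxia response genes were spread around 0, with a median log2 ratio of 0.02, 8 above and 7 below. For 12 of them the difference was smaller than the scanner's error, again without the share of all detected genes beside it. Among the genes of glucose entry and exit from glycolysis, Slc2a1, the main glucose transporter of fetal tissue, read 14.34 in the homozygous and 14.39 in the heterozygous lung (-0.05 ± 0.20). Slc2a3, a high-affinity transporter, read 7.99 in the homozygous and 7.97 in the heterozygous lung (0.02 ± 0.28). These are midpoints between a probe on chromosome 6 at 0.13 and a dim probe at -0.09 whose listed position is on chromosome 17. The Slc2a3 probe not kept is also on chromosome 6. Pdk1, the kinase that keeps pyruvate from the mitochondrial dehydrogenase, read 11.63 in the homozygous and 11.65 in the heterozygous lung (-0.02 ± 0.20). The differences of all 3 genes lay within the scanner's error.

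Of the secreted signals, Vegfa, the endothelial growth factor, gave 10.61 in the homozygous and 10.51 in the heterozygous lung (0.09 ± 0.20), and its 3 probes gave 0.06 to 0.10. Adm, the vasodilator peptide adrenomedullin, gave 9.01 in the homozygous and 9.19 in the heterozygous lung (-0.18 ± 0.21). Both lie within the error, Vegfa above and Adm below 0. The oxygen-sensing prolyl hydroxylases Egln1 and Egln3, themselves hypoxia targets, gave 10.06 in the homozygous against 9.91 in the heterozygous lung (0.15 ± 0.21) and 11.85 against 11.87 (-0.02 ± 0.20).

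The 3 genes of the secretory pathway all stood slightly above 0. P4ha1 and P4ha2, the catalytic subunits of collagen prolyl 4-hydroxylase, gave 10.56 in the homozygous against 10.48 in the heterozygous lung (0.08 ± 0.20) and 11.79 against 11.63 (0.17 ± 0.21). Ero1l, now called Ero1a, the oxidase that drives disulfide formation, gave 9.10 in the homozygous and 8.97 in the heterozygous lung (0.13 ± 0.21). None of the 3 differences passed the scanner's error. In the scanner software's own log ratio P4ha2 (0.234, error 0.205) and Ero1l (0.211, error 0.207) did pass it.

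The 5 genes of stress, pH and mitophagy spread most widely. Ndrg1, a stress and differentiation gene used as a hypoxia marker, stood at 11.22 in the homozygous and 12.13 in the heterozygous lung, 1.87-fold lower (-0.90 ± 0.22). It rests on 1 probe, at chr15:66759164-66759223, minus strand, of mm8. Of 872 equally bright genes, with a median of 0.0013 and a middle 80% of -0.31 to 0.29, 98.2% were higher, and Ndrg1 was the only member below that range. Ndrg1 ranged from -0.91 to -0.34 over the alternative settings, the last with median centring, where the median of all genes was 0.22.

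Bnip3, a mitophagy receptor, read 13.87 in the homozygous and 14.10 in the heterozygous lung (-0.23 ± 0.20). Ankrd37, an ankyrin repeat gene and known target of the pathway, read 10.95 in the homozygous and 11.13 in the heterozygous lung (-0.18 ± 0.21). Ddit4, an inhibitor of mTOR signalling, read 14.53 in the homozygous and 14.46 in the heterozygous lung (0.07 ± 0.20). Car9, a carbonic anhydrase at the cell surface that exports acid, read 9.70 in the homozygous and 9.40 in the heterozygous lung (0.30 ± 0.21), the highest of the hypoxia genes at 1.23-fold, with 10.7% of equally bright genes above it. Classical markers of the response thus lay on both sides of 0.

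The alpha subunits, whose activity is set mainly through protein stability, were measured as RNA only. Hif1a gave 12.48 in the homozygous and 12.35 in the heterozygous lung (0.13 ± 0.20). Epas1, the subunit known from endothelium and from type II cells, gave 7.34 in the homozygous and 7.69 in the heterozygous lung (-0.35 ± 0.24), with probes at -0.14 and -0.56, and 80.1% of equally bright genes stood above it. The endothelial markers had a median log2 ratio of -0.07, and their part in the value of Epas1 was not tested.

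The median of the enzymes, 0.21 or 1.16-fold, stood 0.19 above the 0.02 of the hypoxia response genes. Relative to equally bright genes the medians were 0.14 and 0.05, a smaller distance than without that comparison. Without the 6 bright enzymes, the gap between the medians was 0.09. With 1 array neither gap can be tested against differences between embryos, and what the lists share in tissue composition was not tested.

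**Figure D4:**
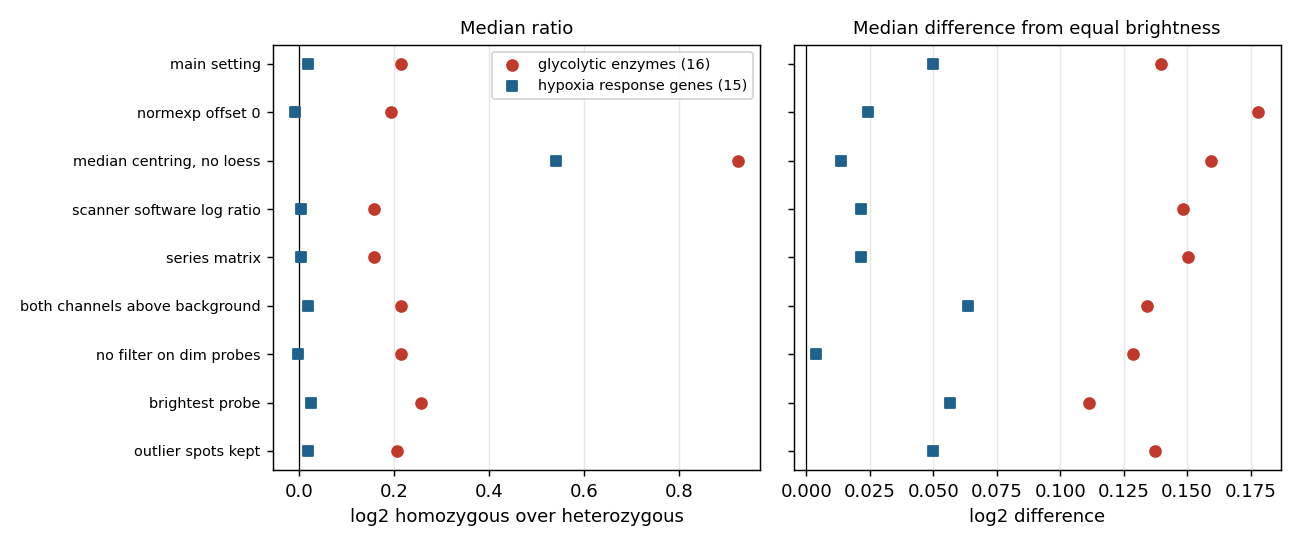
Median log2 ratio of the glycolytic enzymes and of the hypoxia response genes under each plotted processing setting (main setting: as reported), before (left) and after (right) subtracting the median of equally bright genes. The enzymes' difference from equally bright genes keeps to 0.11 to 0.18 in every planned setting, whereas the unadjusted medians shift to 0.92 and 0.54 with median centring. Brightness was taken from the main setting throughout.

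Other genes of the same pathways included single genes that differed more. Of 41 other genes of glucose metabolism, 40 were detected, with a median log2 ratio of -0.02 and 16 above 0; at 1.5-fold 4 were lower and 0 higher. All 42 other genes of the hypoxia pathway were detected, with a median of 0.01 and 22 above 0; at 1.5-fold 1 was lower and 3 higher. Of all detected genes on the array, 5.87% were down by that much and 2.10% were up. The lists share 2 genes and hold 80 detected genes together. At 2-fold 3 of the 80 were lower, against 1.88% of detected genes, and 0 were higher, against 0.576%. Plod2, a collagen lysyl hydroxylase, was the lowest, at 9.90 in the homozygous and 11.50 in the heterozygous lung, 3.04-fold lower (-1.60 ± 0.25). Pdk4, a pyruvate dehydrogenase kinase known from muscle and fasting, stood at 8.71 in the homozygous and 9.95 in the heterozygous lung (-1.23 ± 0.24). Pgam2, the muscle form of phosphoglycerate mutase, stood at 9.39 in the homozygous and 10.42 in the heterozygous lung (-1.02 ± 0.23). The gluconeogenic Fbp1 and Fbp2 stood at -0.96 ± 0.22 and -0.72 ± 0.32, and Vldlr, a lipoprotein receptor, at -0.55 ± 0.21. Striated and cardiac muscle markers had a median of -2.45, and their part in the values of Pdk4, Pgam2 and Fbp2 was not tested.

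At the other end, Arnt2, a partner of the alpha subunits known from neural tissue, stood at 9.37 in the homozygous and 8.52 in the heterozygous lung, 1.81-fold higher (0.85 ± 0.23). Mif, a cytokine, stood at 0.77 ± 0.21, with equally bright genes at a median of 0.23, and Ak4, a mitochondrial adenylate kinase, at 0.62 ± 0.22. Wsb1 and Siah2, both ubiquitin ligase components, stood at 0.54 and 0.39. Slc16a3, the lactate exporter of glycolytic cells, stood at 11.84 in the homozygous and 11.41 in the heterozygous lung, 1.35-fold higher (0.43 ± 0.21). Ldhb, the other main lactate dehydrogenase subunit, stood at 15.00 in the homozygous and 14.72 in the heterozygous lung (0.28 ± 0.20). The regulators Vhl (-0.0049), Egln2 (-0.08), Hif1an (0.07) and Arnt (0.02), which degrade, hydroxylate or pair with the alpha subunits, all lay within the scanner's error as gene medians. Single probes ranged from 0.04 to 0.44 in Hif1an and from -0.15 to 0.40 in Arnt.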

How the data were processed

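RNA of 1 homozygous and 1 heterozygous Foxj1lacZ lung was measured on 1 Agilent two-colour array; the scanner files deposited for the 2 samples hold identical values and count as 1 array. The authors deposited each spot's signal and local background as linear intensity, and the deposited log ratio is log10 of red (homozygous) over green (heterozygous), per the file headers. The deposited error of that ratio is a score of the software's error model, per the file headers, and was turned to log2. Agilent Feature Extraction 9.5.3.1 is named per the submitters' processing notes. The deposited series matrix holds processed intensity values: its log2 ratios lay within 0.05 of the scanner's for 99.95% of 31491 probes above its floor of 15, at a median factor of 1.68, so its direction and scale are settled and the reason for the factor is unknown. Its column medians were 138.8 (homozygous) and 139.8 (heterozygous).

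Mean signals were background-corrected (normexp, offset 50) and loess-normalised, control spots having weight 0, (limma 3.58.1, R 4.3.3, data.table (version 1.17.8)). Ratios of dim probes are drawn towards 0 by the offset. Then 169 outlier spots were left out and 0 spots were saturated. Of 43379 mouse spots, 75.6% (homozygous) and 69.0% (heterozygous) were well above background. Probes with more than a 0.5 share of spots well above background in either channel were kept, and their median stood for the gene. Names came from RefSeq (GRCm38.p6) by accession for 24372 probes, symbol for 6300 and synonym for 2425, and 8070 kept the file's name. Gene values and plots were made with pandas 2.3.3, numpy 2.4.6 and matplotlib 3.10.9 under Python 3.11.15, and the scripts were tested on simulated data. No value column was left unmapped (0).

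No test was possible with 1 sample per group, so no p-value is given and only 1 array limits the precision. The text names all 33 members, of the other pathway genes Vhl, Egln2, Hif1an, Arnt and Ldhb, and the 6 highest and 6 lowest measured in both channels with probes of 1 sign. The members and all lists were chosen with earlier results of these data known. Alternatives were another offset, median centring without loess, the scanner's log ratio, the series matrix, both channels above background, no filter, the brightest probe, outliers kept and a brightness window of 0.5.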

Additional observations from a re-analysis of the deposited data

How the results depend on the processing

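With no filter on dim probes or with outlier spots kept, the members at least 1.5-fold different were 1 higher and 1 lower, and so they were with the scanner's log ratio, where the higher one was Pkm2 (0.74, the value of its dim probe detected in the homozygous channel only) and Gapdh stood at 0.24. The count was 1 (0 higher) with an offset of 0, and 4 (3 higher) both when probes had to be above background in both channels and with the brightest probe of a gene. Median centring without loess, which leaves the trend of the ratio with brightness and moves the median of all genes to 0.22, gave 7 members at least 2-fold and 19 at least 1.5-fold different (19 higher, 0 lower), medians of 0.92 for enzymes and 0.54 for hypoxia genes, and medians of 0.61 and 0.53 for their equally bright genes, with 14 of 15 hypoxia genes above 0. It took 28 of 33 members beyond the scanner's error from their reported ratio, the scanner's log ratio and the series matrix 6 each. In the other planned settings the enzyme median was 0.16 to 0.26, and the hypoxia median -0.0071 to 0.03. The difference from equally bright genes was 0.11 to 0.18 for enzymes and 0.0038 to 0.06 for hypoxia genes in all planned settings, with 13 to 14 and 8 to 9 members above them. Brightness was taken from the main setting throughout, so with the brightest probe of a gene the match was not to that probe's own intensity. Leaving out members brighter than 15, chosen after seeing the data, left 9 of 10 enzymes above. No paired analysis was possible because each group has 1 sample, on the same array, and no replicate could be left out. The scanner's error and the spread between probes are the only errors available.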
